A study of Mus musculus with 8 samples.

Results

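Mitochondrial ribosomal protein genes encode most of the proteins of the mitoribosome, the ribosome inside mitochondria. They were taken by name alone, as the genes whose symbols begin with Mrpl or Mrps followed by a number, by a rule that uses no measured value. Of the 55401 genes in the deposited table, 84 had such a symbol, 6 of these were pseudogenes and were left out, and 78 remained. There were 49 Mrpl genes, named for the large subunit, and 29 Mrps genes, named for the small subunit. All 78 are nuclear genes found in GENCODE M21 on GRCm38, on 17 chromosomes, with the largest number, 11, on chromosome 11.

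Kidney RNA was sequenced in 8 libraries, 4 labelled db/db model (numbered 2, 3, 4 and 5) and 4 labelled rFGF4 treatment (numbered 1, 2, 3 and 5), to see which renal transcripts differ after treatment. The numbers stand in the library names. The labels do not tie a library to an animal, and the study states that its replicates were biological. Mice called db/db lack a working leptin receptor and become obese and diabetic, and their kidneys develop diabetic kidney disease. The agent, rFGF4, is a recombinant human fibroblast growth factor 4 shortened at its N-terminus so that it does not drive cell division, and in the study it was injected intraperitoneally. The series design places both groups in db/db mice, whereas the study's text describes the sequenced kidneys as coming from mice made diabetic with streptozotocin and given rFGF4 or vehicle. The data used here do not settle which model it was, and the labels give no dose, age, sex or duration. Neither source includes non-diabetic kidneys among the sequenced samples, so the levels below have no healthy reference.

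Mitoribosomes translate only the 13 messages encoded in mitochondrial DNA, all of them subunits of the respiratory chain and ATP synthase. Each mitoribosome joins a small subunit, which decodes the message, to a large subunit, which forms peptide bonds, and both are built from mitochondrially encoded ribosomal RNA and nuclear-encoded proteins imported from the cytosol. Some of these proteins have counterparts in bacterial ribosomes and are called conserved here, and the others occur only in mitochondria. The renal proximal tubule is rich in mitochondria because it reabsorbs solutes by ATP-driven transport.

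Expression was deposited as FPKM, fragments per kilobase of transcript scaled to the mapped fragments of the library, a level per unit of length that permits comparison between genes. Counts were not used here and absolute depth is unknown, and relative depth, read from the smallest steps of the low values, lay between 0.906 and 1.12 of that of db/db library 2. Proximal tubule markers summed to 1626 to 2772 FPKM in 7 libraries and to 807 in rFGF4 library 1. Of other tissues, the 4 skeletal muscle markers summed to at most 0.768 FPKM, with Myh4 listed at 0 in every library, and the 4 adrenal markers to 0.808 to 1.38 FPKM, nearly all of it Star, with Cyp11b1 listed at 0. The rFGF4 library 1 and the db/db library 5 stood apart from the others. Their summed macrophage markers reached 427 and 459 FPKM, against 25.5 to 183 in the other 6 libraries, and their B cell and plasma cell markers reached 2714 and 22894 FPKM, against 23.4 to 1449. Their summed distal convoluted tubule markers were the lowest, at 29.8 and 95.3 FPKM against 135 to 241. That sum rests on Slc12a3 and Pvalb, and the remaining marker, Trpm6, went the other way. It was highest in these libraries, at 5.25 and 3.76 FPKM against 1.66 to 3.68. Results are therefore also given without these libraries. In bulk kidney RNA, fewer cells of a type and less RNA per cell cannot be told apart.

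All 78 genes passed the filter of at least 0.5 FPKM in at least 4 libraries. Their mean levels over the 8 libraries ran from 2.72 to 92.5 FPKM with a median of 15.1, and 11 lay over 30 FPKM and 14 under 5. The median was 16.8 FPKM over the 51 large subunit genes and 12.6 over the 26 small subunit genes. These counts follow the protein's place rather than its symbol, because Mrps18a and Mrps30 encode large subunit proteins, and they leave out Mrps36, which encodes a component of the 2-oxoglutarate dehydrogenase complex. By structural class the medians were 15.5 FPKM for 30 conserved and 17.3 for 21 mitochondria-specific large subunit genes, and 13.01 for 16 conserved and 11.4 for 10 mitochondria-specific small subunit genes.

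**Figure D1:**
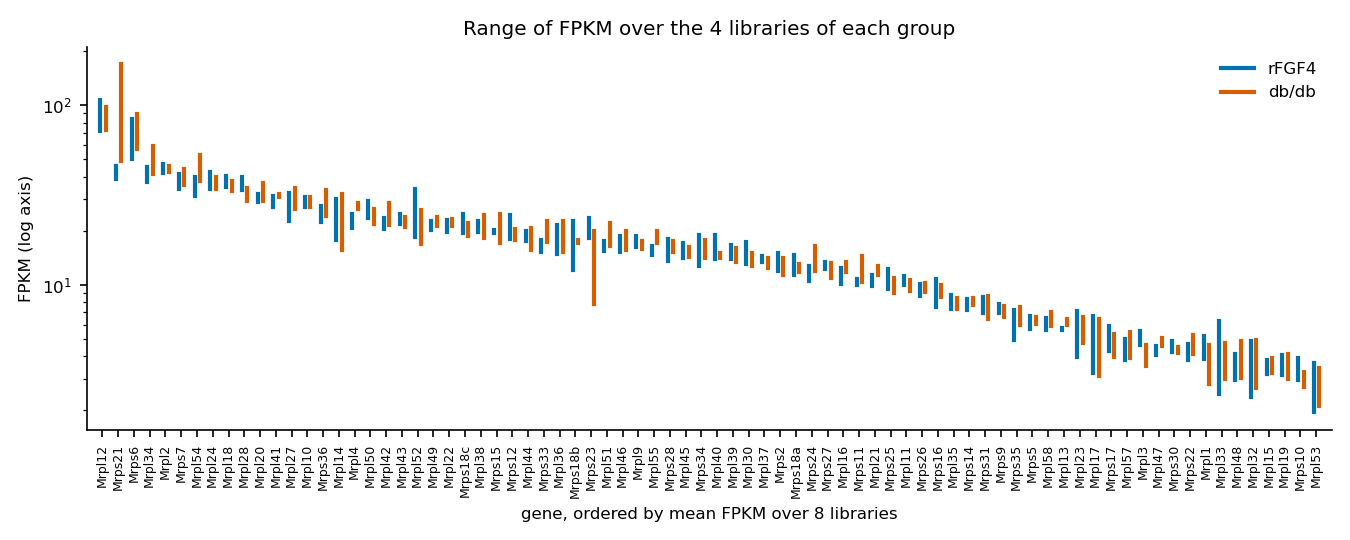
Range of FPKM over the 4 rFGF4 libraries (blue) and the 4 db/db libraries (orange) for each of the 78 genes, on a log axis, ordered by mean level from left to right. Mrpl12 leads at a mean of 92.5 FPKM and Mrpl53 is last at 2.72, and the db/db range of Mrps21, the second gene, reaches 169 FPKM while its rFGF4 range ends at 46.0.

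The highest gene was Mrpl12, which encodes the stalk protein of the large subunit that recruits translation factors and also binds the mitochondrial RNA polymerase. It stood at 71.4, 104, 107 and 93.5 FPKM in rFGF4 libraries 1, 2, 3 and 5 and at 97.1, 97.8, 97.1 and 72.4 FPKM in db/db libraries 2, 3, 4 and 5. The lowest library of each group was thus one of those that stood apart, and the groups overlapped. Its partners in the stalk were lower, Mrpl10 at 28.5 ± 1.81 (SD, n = 4) in rFGF4 and 29.4 ± 1.55 FPKM in db/db libraries, and Mrpl11 at 10.6 ± 0.581 and 9.96 ± 0.571 FPKM. Next to Mrpl12 came Mrps21 at a mean of 80.8 FPKM, Mrps6 at 67.8, Mrpl34 at 46.4 and Mrpl2 at 44.1. Mrps6 encodes a protein of the small subunit and shares exonic sequence on the same strand with Slc5a3, so its level is less certain. Mrpl2 encodes a protein near the site of peptide bond formation, and it was the steadiest of these, between 41.7 and 47.1 FPKM in the 8 libraries.

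The 5 lowest genes were Mrpl53 at a mean of 2.72 FPKM, Mrps10 at 3.23, Mrpl19 at 3.40, Mrpl15 at 3.48 and Mrpl32 at 3.55. Mrpl32 encodes a large subunit protein that must be cleaved by the mitochondrial m-AAA protease before it is incorporated, and its lowest value was 2.36 FPKM, in rFGF4 library 5, and its highest 4.90, in db/db library 4. Levels of single genes are less certain where exons or copies are shared. Exons of 8 of the 78 genes overlap another gene on the same strand. One of them is Mrpl53, whose whole transcript is contained in the overlapping gene Gm42688, listed at 6.43 to 7.35 FPKM, above Mrpl53 itself. Near-identical processed pseudogenes exist for 11 of the 78 genes, and the highest of these, the Mrpl42 copy Gm6419, was listed at 8.07 to 13.7 FPKM. In the order of the levels, all 77 pairs of neighbours had overlapping ranges over the 8 libraries. Across the 78 genes, level and annotated exonic length were related with Pearson's r of -0.74 (log2 scales), the shorter genes being listed higher, whereas r was -0.05 over the 15139 tested genes with a length. This is a description across genes, which are not independent replicates.

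Genes with particular roles lay between these ends. Mrps12, which encodes the decoding-site protein of the small subunit, stood at 20.5 ± 2.89 FPKM in rFGF4 and 19.2 ± 1.17 in db/db libraries (SD, n = 4), and Mrps5, another protein of the small subunit core, at 6.26 ± 0.453 and 6.36 ± 0.234 FPKM. Mrps34, needed for a stable small subunit, stood at 14.9 ± 2.75 and 15.3 ± 1.61 FPKM. Mrpl45, which lies at the tunnel exit near the inner membrane, stood at 15.8 ± 1.29 and 15.03 ± 0.816 FPKM, and Mrpl44, a protein with an RNase III fold, at 18.9 ± 1.11 and 18.1 ± 2.21 FPKM. Mrpl58, a peptidyl-tRNA hydrolase built into the large subunit, stood at 5.87 ± 0.419 and 6.40 ± 0.489 FPKM, and Mrps30 at 4.45 ± 0.288 and 4.38 ± 0.147 FPKM. In each of these 7 genes the rFGF4 and db/db libraries overlapped. The Mrps18 paralogs, whose proteins occupy different places in the mitoribosome, were all expressed, with Mrps18c at a mean of 20.8 FPKM, Mrps18b at 17.8 and Mrps18a at 12.9. The groups overlapped in all of them, with Mrps18b running from 12.1 FPKM in rFGF4 library 5 to 22.8 in rFGF4 library 1. A processed pseudogene with 99.8% identity to part of the Mrps18b transcript, Gm13552, was itself listed at 3.08 to 5.21 FPKM, so reads may have been split between them.

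The genes varied little from library to library. The ratio of the highest to the lowest of the 8 libraries had a median of 1.36, and 56 of 78 genes (71.8%) stayed under 1.5, against 14.1% of all 15150 tested genes. The median residual SD within groups was 0.132 on the log2 scale, against 0.275 over all tested genes and 0.274 over the 8991 other genes whose mean levels lay in the same range. The 7 genes with a ratio over 2 were Mrpl14, Mrpl17, Mrpl32, Mrpl33, Mrpl52, Mrps21 and Mrps23. Of these, Mrpl14 stood at 26.5, 28.7, 17.7 and 29.9 FPKM in rFGF4 libraries 1, 2, 3 and 5 and at 28.1, 32.0, 28.6 and 15.6 FPKM in db/db libraries 2, 3, 4 and 5. Mrpl17 stood at 6.68, 6.03, 3.23 and 5.502 FPKM and at 5.93, 6.42, 5.44 and 3.09 FPKM in the same order. Both were lowest in rFGF4 library 3 and db/db library 5. Mrpl33 and Mrpl52 were instead highest in rFGF4 library 1, at 6.24 and 34.2 FPKM, and next highest in db/db library 5, at 4.75 and 26.2 FPKM.

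**Figure D2:**
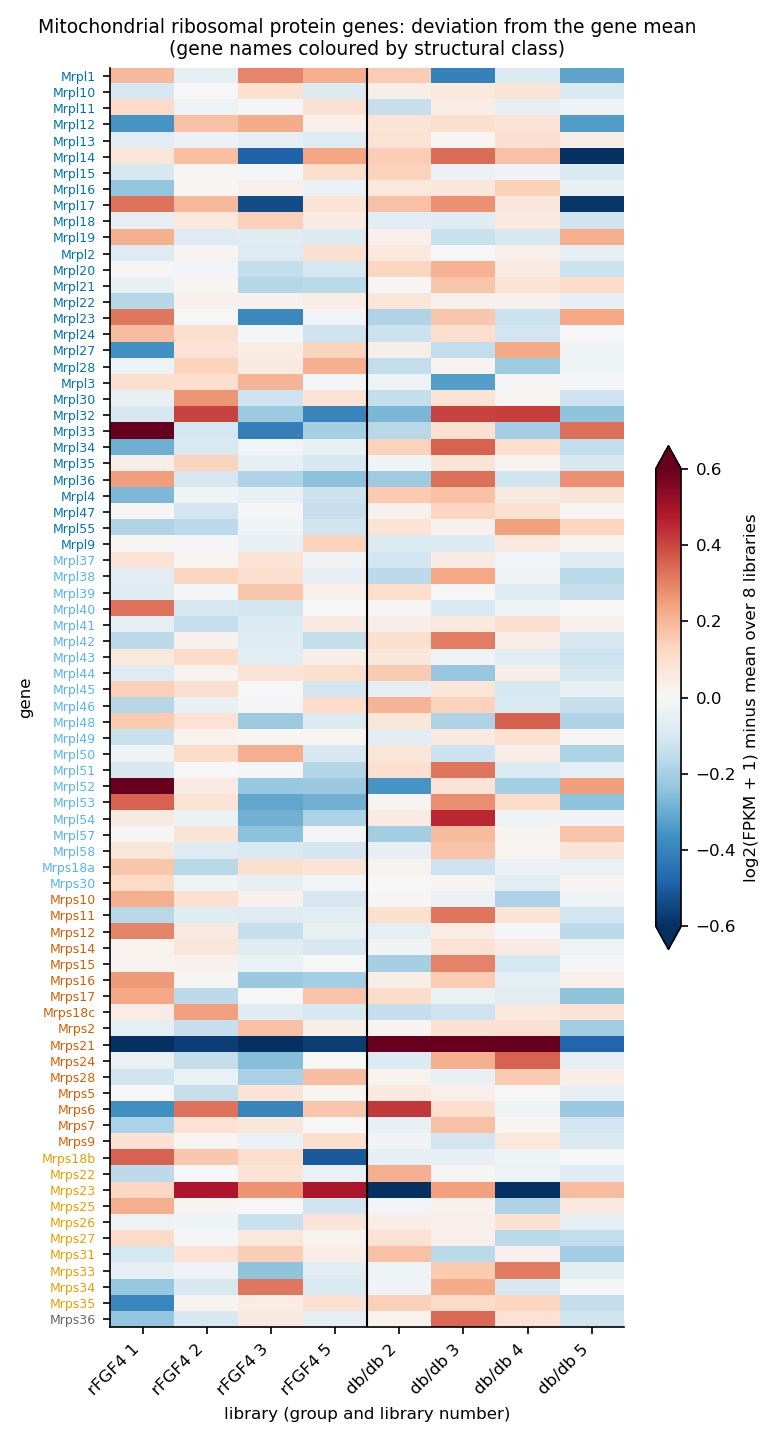
Deviation of log2(FPKM + 1) from the gene's mean over the 8 libraries, for the 78 genes (rows, named in the colour of their structural class) in each library (columns, rFGF4 to the left of the line and db/db to the right). Most rows are pale, Mrps21 is dark blue in the 4 rFGF4 libraries and in db/db library 5 and dark red in db/db libraries 2, 3 and 4, and Mrps23 is dark blue in db/db libraries 2 and 4.

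The genes did not deviate from their means as 1 block. Over the 3003 pairs of genes, Pearson's r over the 8 libraries had a median of 0.06. Each gene's r with the mean of the other 77 had a median of 0.23, was over 0.7 in 9 genes and was under 0 in 26 (n = 8 libraries, which share their scaling). Mrpl20 followed the others most closely at r = 0.92, with 32.0, 31.5, 28.8 and 29.7 FPKM in rFGF4 libraries 1, 2, 3 and 5 and 35.0, 37.0, 33.0 and 29.1 FPKM in db/db libraries 2, 3, 4 and 5, while Mrpl3 was farthest from them at r = -0.73. The median deviation of the 78 genes in a library lay between -0.05 in db/db library 5 and 0.07 in db/db library 3 on the log2 scale, a range of 0.12. Over all tested genes, that range was 0.39. In rFGF4 library 1, 19 genes had their lowest value and 19 others their highest.

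Treatment and control groups were compared gene by gene, with limma on log2(FPKM + 1) over all 15150 tested genes. With an adjusted p under 0.05, none of the 78 genes was called, and neither was any of the 15150 (0.0%); the smallest adjusted p was 0.918. At an unadjusted p under 0.05, 2 of the 78 genes were lower in rFGF4 libraries, against 161 of all tested genes (1.06%), and none was higher, against 539 (3.56%, or 4.62% in either direction). The 2 genes were Mrps21, which kept such a p in all 18 alternative fits, and Mrpl55, which kept it in 8 of 18. With the study's limits on the fold change added, 1.5 and 0.67, Mrps21 was the 1 gene that passed as lower (0.442% of all tested genes) and none passed as higher (1.09%, or 1.53% in either direction). Groups that did not overlap, with all rFGF4 values below all db/db values, were seen in 5 of the 78 genes (0.667% of all tested genes), namely Mrps21, Mrpl55, Mrpl4, Mrpl47 and Mrpl13, and the opposite order in none (2.66%, or 3.33% in either order). This balance turned with the scaling, since under equal FPKM sums none of the 78 genes lay wholly lower (0.139% of all tested genes) and 11 lay wholly higher (4.11%), and with mitochondrial transcripts left out of the sums none (0.337%) and 4 (5.09%) did.

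Most of the genes lay close to 0. The log2 fold change of rFGF4 against db/db libraries had a median of -0.02 over the 78 genes, with quartiles of -0.11 and 0.06, and 42 were negative and 36 positive. Over all tested genes the median was 0.09. A log2 fold change between -0.2 and 0.2 was found in 70 of 78 genes (89.7%), against 61.9% of all tested genes and 58.2% of the genes in the same range of levels. In 70 of 78 genes (89.7%), the whole 95% interval of the difference lay within 1.5-fold in either direction, against 47.0% of all tested genes. The other 8 genes were Mrps21, Mrps23, Mrps6, Mrpl1, Mrpl17, Mrpl32, Mrpl33 and Mrpl52, whose intervals reached beyond 1.5-fold. Related lists had similar shares of intervals wholly within 1.5-fold. They were 96.0% for 25 genes of mitoribosome assembly, 100% for 5 subunits under other names and 81.25% for 16 translation factors.

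The centre of the distribution depended on how the libraries were scaled. The median of the 78 genes was -0.11 after scaling to a common median ratio, with 67 negative, and 0.18 after scaling to equal FPKM sums, with 6 negative. The same scalings moved the median of all tested genes to 0.01 and 0.26. Relative to the median of all tested genes, the 78 genes lay at -0.11 in the deposited scale and between -0.12 and -0.08 in the other scalings. Without rFGF4 library 1 this distance was -0.03, without db/db library 5 it was -0.20, and without both libraries it was -0.11. With no filter on the level it was -0.037, and with the library number as a block it was -0.0058.

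**Figure D3:**
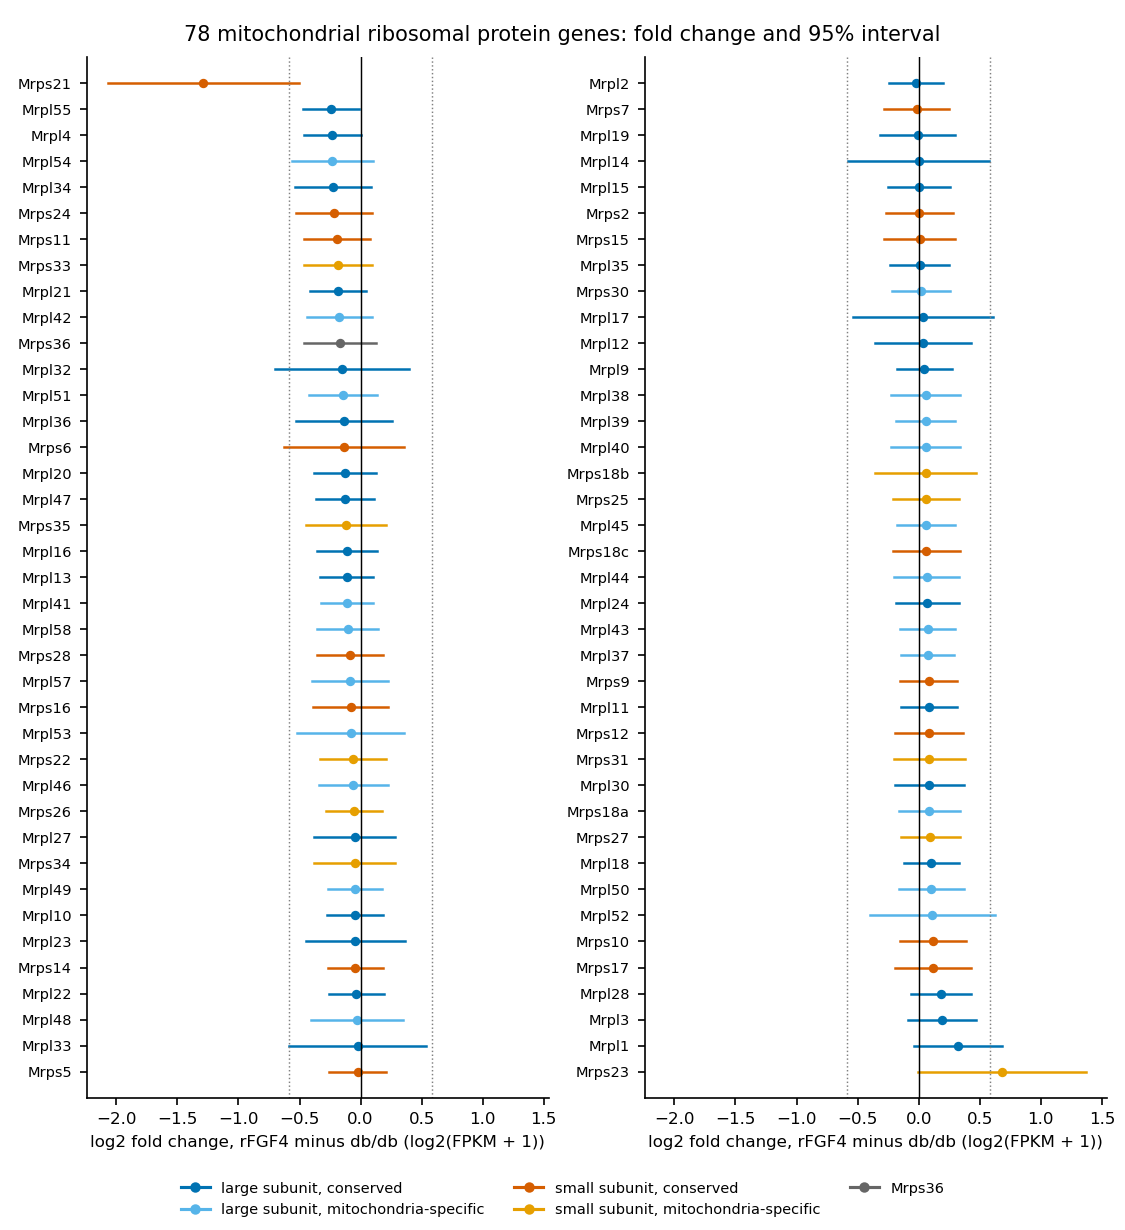
Log2 fold change (points) and 95% interval (lines) of rFGF4 minus db/db libraries for the 78 genes, sorted from the lowest (top left) to the highest (bottom right) and coloured by structural class, with dotted lines at 1.5-fold. Mrps21 stands alone at -1.29 and Mrps23 at 0.68, and 70 of the 78 intervals lie wholly between the dotted lines.

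By structural class, the median log2 fold change was -0.02 over the 30 conserved and 0.02 over the 21 mitochondria-specific large subunit genes, and -0.02 over the 16 conserved and 0.01 over the 10 mitochondria-specific small subunit genes. The 5 genes whose groups did not overlap in the deposited scale (0.667% of all tested genes) were all conserved subunits, 4 of the large and 1 of the small subunit. Conserved genes are the larger class, 30 of 51 in the large and 16 of 26 in the small subunit. Under equal FPKM sums none of the 78 genes lay wholly lower (0.139% of all tested genes). A relation to structural class was not tested. Mrps36 was at 24.9 ± 2.11 FPKM in rFGF4 and 28.2 ± 4.02 in db/db libraries (SD, n = 4), a log2 fold change of -0.17 (SE 0.13).

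Mrps21 departed most from the other genes. It encodes a small subunit protein related to bacterial S21 and lies on chromosome 3 (chr3:95862634-95871519, minus strand, ENSMUSG00000054312, GRCm38). Its FPKM was 39.0, 46.0, 43.8 and 45.8 in rFGF4 libraries 1, 2, 3 and 5 and 126, 169, 128 and 49.0 in db/db libraries 2, 3, 4 and 5. The rFGF4 libraries were tightly grouped, 3 db/db libraries stood far above them, and db/db library 5 lay just above the highest rFGF4 library. The group means were 43.6 ± 3.26 and 118 ± 50.0 FPKM (SD, n = 4), and the log2 fold change was -1.29 (SE 0.34, 95% interval -2.07 to -0.50), an FPKM 2.70-fold higher in db/db libraries by the group means. The p from limma was 0.00523 unadjusted and 0.918 adjusted, and the two-sided exact permutation p was 0.0286, the smallest that 4 libraries against 4 can give. The lack of overlap rested on the scaling, because under equal FPKM sums db/db library 5 fell within the range of the rFGF4 libraries, where the exact permutation p was 0.0571 for a log2 fold change of -1.06. With mitochondrial transcripts left out of the sums it fell within that range too, and the exact permutation p was 0.114 for -1.19.

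By mean level the gene ranked 1 of 78 in db/db libraries and 4 of 78 in rFGF4 libraries. It made up 2.87% to 3.27% of the summed FPKM of the 78 genes in rFGF4 libraries, 3.68% in db/db library 5, and 8.37% to 10.3% in db/db libraries 2, 3 and 4. Without db/db library 5, whose macrophage and B cell markers were the highest of all libraries, the log2 fold change was -1.66 and the adjusted p from limma was 0.051. Without both libraries that stood apart, it was -1.61 with an adjusted p of 0.134. The db/db library 5 held the lowest db/db value of Mrps21, so leaving it out widens the difference. With any other single library left out, the smallest adjusted p from limma among the 78 genes was at least 0.48. In the 18 alternative fits, which include leaving out each library in turn, the log2 fold change of Mrps21 lay between -1.66 and -1.06 and the unadjusted p between 6.97e-06 and 0.0392. Red blood cell markers also differed between these libraries. Their summed FPKM was 120, 1556, 437 and 2657 in rFGF4 libraries 1, 2, 3 and 5 and 3793, 4325, 2700 and 1139 in db/db libraries 2, 3, 4 and 5, and all 5 markers had negative log2 fold changes, with a median of -1.97 and none at an unadjusted p under 0.05. They were highest in the 3 db/db libraries with high Mrps21, and rFGF4 library 5, nearly as high in these markers as db/db library 4, had 45.8 FPKM of Mrps21 against 128. Their part in the Mrps21 difference was not tested. No other annotated exon overlaps Mrps21. Its near-identical processed pseudogene, Gm6181, which matches 264 bases of the transcript at 97.3% identity, was listed at 0.162 to 0.885 FPKM.

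Mrps23 showed the largest value in the other direction. It encodes a mitochondria-specific small subunit protein and lies at chr11:88204388-88211507 on the plus strand. Its FPKM was 18.1, 23.6, 20.1 and 23.6 in rFGF4 libraries 1, 2, 3 and 5 and 9.06, 19.8, 7.76 and 18.9 in db/db libraries 2, 3, 4 and 5. The db/db libraries formed a low pair, 2 and 4, and a pair within the range of the rFGF4 libraries, and the groups overlapped. The log2 fold change was 0.68 (SE 0.30, 95% interval -0.00 to 1.37), with a p from limma of 0.0504 unadjusted and 0.918 adjusted and an exact permutation p of 0.114. In 6 of the 18 alternative fits the unadjusted p was under 0.05, namely with equal FPKM sums of both kinds, with array weights, without db/db library 3, without db/db library 5 and without both libraries that stood apart, with log2 fold changes of up to 1.02. Leaving out 1 library moved it between 0.46 (without db/db library 4) and 0.88 (without db/db library 3).

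**Figure D4:**
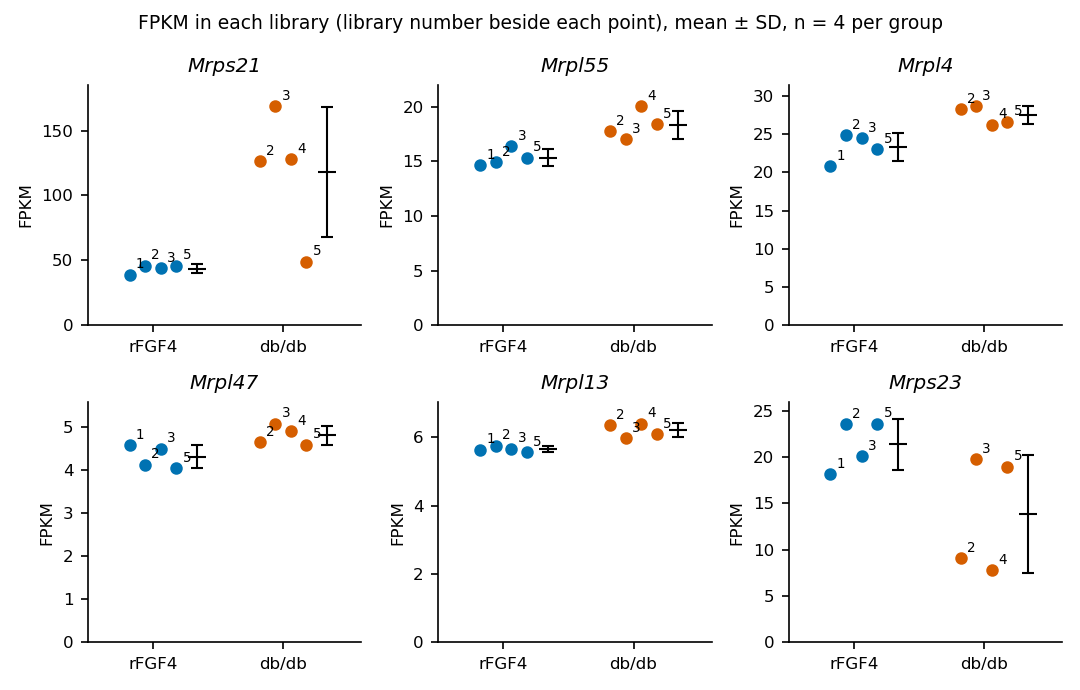
FPKM in each library for 6 genes, with the library number beside each point and the mean ± SD (n = 4) in black, rFGF4 in blue and db/db in orange. The groups do not overlap in Mrps21, Mrpl55, Mrpl4, Mrpl47 and Mrpl13 and they overlap in Mrps23, where db/db libraries 2 and 4 stand at 9.06 and 7.76 FPKM.

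The other 4 genes without overlap differed by small amounts. Mrpl55, a large subunit protein, stood at 14.6, 14.9, 16.4 and 15.3 FPKM in rFGF4 libraries 1, 2, 3 and 5 and at 17.7, 17.1, 20.03 and 18.4 FPKM in db/db libraries 2, 3, 4 and 5. Its log2 fold change was -0.24 (SE 0.10), and its adjusted p from limma was 0.918. The unadjusted p was above 0.05 in 10 of the 18 alternative fits, 6 of them fits with 1 library left out, in which the log2 fold change stayed between -0.27 and -0.20. It was -0.03 under equal FPKM sums, -0.15 with mitochondrial transcripts left out of the sums, -0.18 with the replicate block and -0.22 without both libraries that stood apart. Mrpl4, a protein that lines the exit tunnel of the large subunit, stood at 20.8, 24.8, 24.4 and 23.0 FPKM in rFGF4 and at 28.2, 28.6, 26.2 and 26.6 FPKM in db/db libraries, in the same order, a log2 fold change of -0.23 (SE 0.10), which was -0.013 under equal FPKM sums. Under that scaling the groups overlapped in both genes. The rFGF4 group mean was 0.837 of the db/db mean for Mrpl55 and 0.848 for Mrpl4.

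Mrpl13 varied little within each group. It stood at 5.64, 5.76, 5.67 and 5.58 FPKM in rFGF4 and at 6.36, 5.98, 6.40 and 6.10 FPKM in db/db libraries, a log2 fold change of -0.11 (SE 0.09). Mrpl47 stood at 4.57, 4.12, 4.49 and 4.04 FPKM in rFGF4 and at 4.64, 5.07, 4.90 and 4.58 FPKM in db/db libraries, a log2 fold change of -0.13 (SE 0.10). Both encode core proteins of the large subunit, and their values turned positive under equal FPKM sums. Exons of both overlap genes on the opposite strand, Mtbp for Mrpl13 and Actl6a and Ndufb5 for Mrpl47, and no source used here says whether reads were assigned by strand. Mrpl1, next to Mrps23 among the positive values, had a log2 fold change of 0.32 (SE 0.16) with overlapping groups.

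Promoters were read to show what the sequences around the start sites of these genes have in common. RefSeq on GRCm38.p6 gave a promoter window, from 250 bases before to 50 after the transcription start, for 69 of the 78 genes. Known regulators of mitochondrial genes include NRF1, which binds a GC-rich palindrome, and ETS-family factors such as GABPA, the DNA-binding part of NRF2, which bind CCGGAAG. Both strands were searched for these, for AAGATGGCG (YY1), CCAAT (NFY) and TATAAA (the TATA box), and, as a motif added after the Mrps21 window had been read, for the NRF1 palindrome with 1 central base left free. The 4 windows below are shown to 30 bases after the start, those of the genes with the largest negative and positive values, of Mrpl55 and of Mrpl12 as the highest gene, with motif matches in capitals. They lie at chr3:95871485-95871764 (minus strand), chr11:88204138-88204417 (plus), chr11:59202236-59202515 (plus) and chr11:120484387-120484666 (plus).
Mrps21: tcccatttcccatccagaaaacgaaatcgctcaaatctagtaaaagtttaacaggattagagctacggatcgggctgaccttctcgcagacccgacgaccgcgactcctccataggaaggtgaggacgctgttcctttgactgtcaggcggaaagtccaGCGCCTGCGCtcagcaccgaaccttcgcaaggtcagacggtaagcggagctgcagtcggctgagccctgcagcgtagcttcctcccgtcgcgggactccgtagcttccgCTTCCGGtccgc
Mrps23: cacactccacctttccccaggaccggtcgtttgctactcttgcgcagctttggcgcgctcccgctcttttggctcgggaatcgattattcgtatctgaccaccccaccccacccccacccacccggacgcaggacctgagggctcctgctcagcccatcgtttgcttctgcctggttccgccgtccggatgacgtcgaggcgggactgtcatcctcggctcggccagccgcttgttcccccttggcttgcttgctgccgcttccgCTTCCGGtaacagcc
Mrpl55: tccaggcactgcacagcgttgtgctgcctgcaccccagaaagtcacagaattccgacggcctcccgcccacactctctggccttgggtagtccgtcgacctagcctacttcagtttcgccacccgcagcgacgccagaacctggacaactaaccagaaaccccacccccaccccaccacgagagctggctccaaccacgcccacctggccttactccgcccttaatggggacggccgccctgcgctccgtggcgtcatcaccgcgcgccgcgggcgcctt
Mrpl12: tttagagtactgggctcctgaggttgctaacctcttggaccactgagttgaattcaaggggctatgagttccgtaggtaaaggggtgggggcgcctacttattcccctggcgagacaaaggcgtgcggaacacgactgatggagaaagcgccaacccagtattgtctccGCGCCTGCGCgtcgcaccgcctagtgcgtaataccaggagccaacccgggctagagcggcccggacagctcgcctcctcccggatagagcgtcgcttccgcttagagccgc

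The Mrps21 window holds a match to the freed NRF1 motif and an ETS match in reverse orientation, Mrps23 holds an ETS match at nearly the same distance after the start, Mrpl12 holds a match to the freed NRF1 motif, and Mrpl55 holds none of the motifs. Over the 69 genes, 26 (37.7%) had an ETS match, against 9.93% of the 27025 genes with a window, 19.3% of the 10376 tested genes with one and 40.0% of 65 cytosolic ribosomal protein genes. Of the 31 ETS matches, 28 lay within 100 bases of the start. The freed NRF1 motif was found in 13 genes (18.8%), against 5.19% of all and 10.8% of tested genes, and the exact palindrome in 3 (4.35%), against 1.07% and 2.14%. The YY1 motif was found in 8 genes (11.6%, against 1.64% of all and 3.49% of tested genes), and in 2 (2.90%, against 0.710% and 1.38%) where the window ended at the start, the NFY motif in 27 (39.1%, against 41.1% and 42.2%) and the TATA box in 5 (7.25%, against 15.7% and 9.19%). No matches of different motifs overlapped, apart from the exact NRF1 site, which is contained in the freed one. The median log2 fold change was -0.033 for the 26 genes with an ETS match and 0.0059 for the other 43 genes with a window. With and without the other motifs it was 0.056 and -0.033 for NFY, 0.037 and -0.024 for the freed NRF1 motif, -0.064 and -0.018 for YY1 and -0.059 and 0.0031 for the TATA box. A match describes letters in a window and not occupancy.

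The wider machinery of mitochondrial translation gave similarly small values in the deposited scale. The 5 subunits of the mitoribosome that carry other names had a median log2 fold change of -0.03. Among them Dap3, a GTP-binding protein of the small subunit, stood at 6.16, 7.83, 6.15 and 6.54 FPKM in rFGF4 and at 5.88, 6.46, 6.18 and 6.47 FPKM in db/db libraries. Over 25 genes of mitoribosome assembly the median was 0.02 and none reached an unadjusted p under 0.05 in either direction. The smallest p-values were those of Tfb1m and of Trub2, a pseudouridine synthase, at log2 fold changes of -0.16 (SE 0.11) and 0.18 (SE 0.13). Tfb1m, which methylates the small subunit ribosomal RNA, stood at 1.56, 1.26, 1.47 and 1.303 FPKM in rFGF4 and at 1.56, 2.01, 1.48 and 1.70 FPKM in db/db libraries. Over 16 translation factors and related genes the median was 0.04 and again none reached that p. The medians of the assembly and translation factor lists were 0.22 and 0.23 under equal FPKM sums, and -0.05 and -0.04 with a common median ratio. The recycling factor Mrrf and the peptide deformylase Pdf had log2 fold changes of 0.20 (SE 0.12) and 0.19 (SE 0.12). Tufm, the elongation factor that brings aminoacyl-tRNA to the mitoribosome, ranged from 39.7 to 64.1 FPKM in rFGF4 and from 43.0 to 62.0 in db/db libraries, and the groups overlapped.

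Genes that replicate and transcribe mitochondrial DNA had a median of 0.08 (11 genes), and none had an unadjusted p under 0.05. In Tfb2m, a mitochondrial transcription initiation factor, all rFGF4 values (10.9, 11.5, 12.3 and 11.8 FPKM) lay above all db/db values (10.0, 9.69, 10.7 and 10.5 FPKM), an order found in 2.66% of all tested genes. Its log2 fold change was 0.17 (SE 0.10), with a p from limma of 0.121 unadjusted and 0.918 adjusted. Among 9 regulators of mitochondrial biogenesis, with a median of 0.14 and none at an unadjusted p under 0.05, the smallest p-values were those of Yy1 at 0.28 (SE 0.13) and of Esrra at -0.41 (SE 0.23). Ppargc1a, the coactivator PGC-1alpha, stood at 4.9996, 7.48, 7.44 and 9.09 FPKM in rFGF4 and at 9.92, 7.67, 8.72 and 6.70 FPKM in db/db libraries. Gabpa and Nrf1, whose motifs were searched above, had log2 fold changes of 0.14 (SE 0.13) and 0.10 (SE 0.15). Genes of mitochondrial protein folding and proteolysis had a median of 0.09 (12 genes), with none at that p, and the protease Clpp and the stress-induced transcription factor Ddit3 had log2 fold changes of -0.14 (SE 0.11) and 0.28 (SE 0.24).

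The RNA of the mitoribosome and the messages it translates varied more between libraries than the messages for its proteins. The mitochondrial ribosomal RNAs mt-Rnr1 and mt-Rnr2, measured here in poly(A)-selected RNA, ranged from 348 to 722 FPKM and from 253 to 652 FPKM over the 8 libraries, with log2 fold changes of -0.10 (SE 0.29) and -0.11 (SE 0.31). All 13 mitochondrially encoded messages had negative log2 fold changes, with a median of -0.55, and 1 of them, mt-Nd3, had an unadjusted p under 0.05. The 13 messages are cut from shared transcripts and are not independent. All 13 stayed negative, with medians between -0.65 and -0.33, under the other scalings except quantile normalization and without both libraries that stood apart. Quantile normalization, which sets the values of the same rank equal in all libraries and so fixes the most abundant transcripts, gave a median of -0.04 with 8 negative. mt-Nd3 stood at 1273, 1733, 1842 and 2669 FPKM in rFGF4 and at 3211, 3734, 3015 and 2149 FPKM in db/db libraries, with overlap in db/db library 5. The sum of the 13 ranged 2.89-fold over the libraries, from 71503 in rFGF4 library 1 to 206849 in db/db library 2, while the sum over the 78 genes ranged 1.23-fold, from 1331 in db/db library 5 to 1632 in db/db library 3. Without Mrps21 the sum over the other 77 genes was 1353 ± 39.8 FPKM in rFGF4 and 1375 ± 74.4 in db/db libraries (SD, n = 4). Nuclear-encoded respiratory chain genes had a median of -0.21, with 75 of 84 negative, 5 lower and none higher at an unadjusted p under 0.05, against 1.06% and 3.56% of all tested genes. Under equal FPKM sums the median was 0.017 with 38 negative. Relative to the median of all tested genes, it lay at -0.29 in the deposited scale and between -0.31 and -0.22 in the other scalings and without both libraries that stood apart. Median log2 fold changes were also negative for collecting duct (-0.31) and red blood cell markers (-1.97), and positive for podocyte (0.26) and macrophage markers (0.43). The part of cell types in the respiratory chain values was not tested. Ndufa6, a complex I subunit, stood at 41.0, 42.9, 49.9 and 45.9 FPKM in rFGF4 and at 58.3, 52.3, 56.4 and 54.3 FPKM in db/db libraries.

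**Figure D5:**
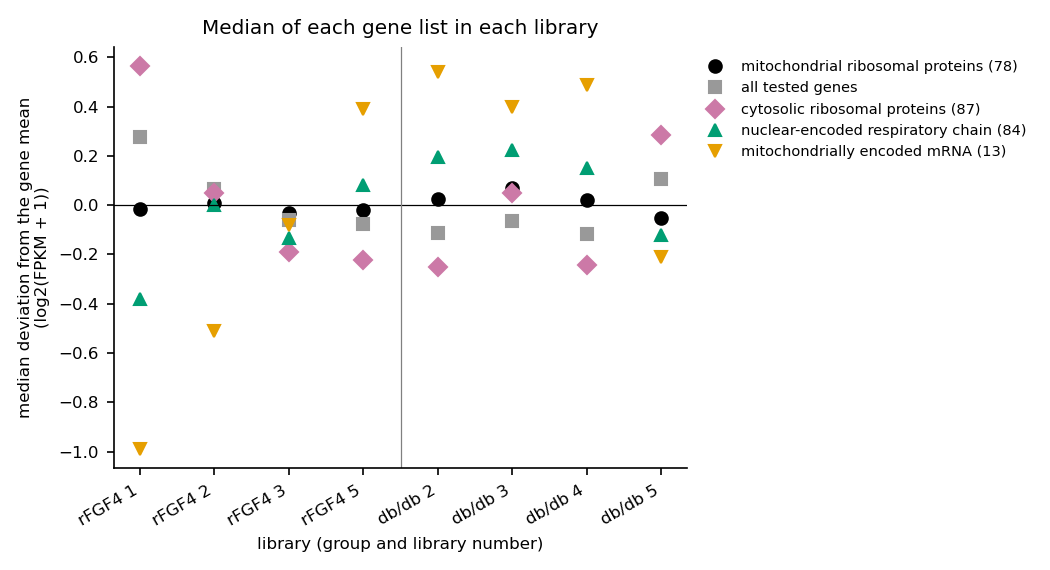
Median deviation of log2(FPKM + 1) from the gene's mean in each library, for the 78 mitochondrial ribosomal protein genes (black circles), all tested genes, cytosolic ribosomal protein genes, nuclear-encoded respiratory chain genes and mitochondrially encoded messages. The black circles stay within a range of 0.12, while the mitochondrially encoded messages range over 1.53 and the cytosolic ribosomal protein genes over 0.82. Lists not drawn were about as steady, with ranges of 0.11 for mitochondrial DNA expression, 0.16 for mitoribosome assembly and 0.19 for translation factors.

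Cytosolic ribosomal protein genes, the counterpart outside mitochondria, differed more between libraries. Their median deviation ranged over 0.82 on the log2 scale, from -0.25 in db/db library 2 to 0.56 in rFGF4 library 1, and was 0.28 in db/db library 5. The sum over the 78 mitochondrial genes therefore ran from 8.13% of the sum over the cytosolic ones in rFGF4 library 1 to 16.1% in db/db library 2. The 2 libraries with the lowest shares, at 8.13% and 9.68%, were those with the most macrophage and B cell transcripts, and the part of other cells in this ratio was not tested. The cytosolic genes had a median log2 fold change of 0.10, with 1 of 87 lower (Rps10) and none higher at an unadjusted p under 0.05. That median was 0.0064 with a common median ratio, 0.33 under equal FPKM sums and 0.026 without both libraries that stood apart.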

How the data were processed

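The deposited table holds FPKM values per gene and library, calculated by the authors, who assembled mapped reads with StringTie and merged the transcripts with gffcompare. The submitters' processing notes name HISAT2 2.0, StringTie 1.3.0, Bowtie 0.12.2 and the build mm8, whereas 55141 of the 55401 identifiers (99.5%) were found in GENCODE M21 on GRCm38, from which positions and lengths were taken. RNA was poly(A)-selected and sequenced in pairs. FPKM are relative to each library's mapped total, so abundant transcripts lower all others. The value 0.0001 stands for 0. The authors' own fold changes, log2 fold changes, p-values, q-values and calls, which the methods attribute to edgeR, were not used. Since the values are not counts, log2(FPKM + 1) was compared with limma 3.58.1 in R 4.3.3 (trended prior, Benjamini-Hochberg adjustment) over 15150 genes with at least 0.5 FPKM in at least 4 libraries, and single genes by two-sided exact permutation tests. The 4 libraries of each group served as replicates, numbered as in their names, and p-values measure the spread between these libraries, which the study describes as biological replicates and the labels do not tie to animals.

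Genes named in the text are those with an unadjusted p under 0.05, those whose groups did not overlap, the 5 highest and 5 lowest by mean level, and genes with known roles. From each related list, genes were taken from the 2 smallest p-values or for a known role. Mrps23, Mrpl1, Mrpl3, Mrpl14, Mrpl17, Mrpl20, Mrpl33, Mrpl52, Gabpa and Nrf1 were chosen after their values were seen. The members and lists were chosen with earlier results of these data known. Copies were sought with blastn 2.17.0 among GENCODE transcripts (at least 95% identity over 250 bases and 50% of the transcript). Alternatives were another pseudocount, other filters, 4 other scalings, array weights, a replicate block and leaving out each library, and, added after seeing the data, leaving out both libraries that stood apart. The fit was tested on simulated data. Figures were drawn with matplotlib 3.10.9.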

Additional observations from a re-analysis of the deposited data

Results flagged for a closer look

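Of 156 groups of 4 libraries (78 genes in 2 groups), 9 held 1 library far from the other 3, or 5.77%, chance alone flags about 1 in 20, and the share was 6.35% over all tested genes, so the number is no more than the background. In rFGF4 library 1, Mrpl19 was high at 4.08 FPKM, while Mrpl22 at 19.6, Mrpl49 at 20.1, Mrps11 at 9.98 and Mrps35 at 4.89 FPKM were low. In db/db library 5, Mrpl12 was low at 72.4 FPKM and Mrps35 at 5.99. In db/db library 3, Mrpl3 was low at 3.51 FPKM and Mrpl54 high at 52.7. Of the 9, 7 were in rFGF4 library 1 or db/db library 5, as were 61.1% of those over all tested genes. Mrps21 in db/db library 5, at 49.0 FPKM against 126 to 169 in the other 3 db/db libraries, did not pass the same test.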

How the results depend on the processing

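Mrps21 kept its direction and an unadjusted p under 0.05 in all 18 alternatives, Mrpl55 kept such a p in 8 of them, and none of the 78 genes reached an adjusted p under 0.05 in any of them. The median log2 fold change of the 78 genes was -0.11 with a common median ratio, 0.18 with equal FPKM sums, 0.066 with equal FPKM sums without mitochondrial transcripts and -0.11 with quantile normalization, and between -0.05 and 0.00 with 1 library left out. Relative to all tested genes it stayed negative in the 18 alternatives, against -0.11 as reported, between -0.20 and -0.03 with 1 library left out and -0.0058 with the replicate block, where the distance was close to 0.

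At an unadjusted p under 0.05, the count lower in rFGF4 libraries, 2 as reported, was 1 with equal FPKM sums with or without mitochondrial transcripts (0.297% and 0.574% of all tested genes), 4 with quantile normalization (1.86%), 1 without both libraries that stood apart (1.55%), and 1 to 2 with 1 library left out. It was 3 with a common median ratio (2.01%), 3 with no filter (1.44%) and 3 of the 64 genes with a mean of at least 5 FPKM (0.864%). Mrpl4 had such a p in 3 of the 18 alternatives. The count higher, 0 as reported, was 4 with equal FPKM sums (7.31% of all tested genes), 3 without mitochondrial transcripts in the sums (6.88%), 2 with array weights (9.04%), 1 without both libraries (4.44%) and 0 to 1 with 1 library left out. Each of the first 4 counts is a smaller share of the 78 genes than of all tested genes. At the study's threshold, the count higher was 1 with equal FPKM sums (3.35% of all tested genes), 1 without mitochondrial transcripts in the sums (1.84%), 1 with array weights (2.40%) and 1 without both libraries (1.36%). With 1 library left out it was 0 to 1 (0.836% to 2.76%). Genes whose groups did not overlap numbered, lower and higher, 0 and 11 with equal FPKM sums (0.139% and 4.11% of all tested genes), 0 and 4 with such sums without mitochondrial transcripts (0.337% and 5.09%), and 13 and 2 without both libraries (3.29% and 10.4%), and the lower count was 2 with a common median ratio (1.28%) and 2 with quantile normalization (0.970%). With 1 library left out they numbered 5 to 11 (1.002% to 2.23% of all tested genes) and 0 to 3 (3.38% to 9.03%). Under equal FPKM sums, Mrpl47 had a log2 fold change of 0.060, Mrpl13 of 0.082 and Mrps36 of 0.053.

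Libraries with the same number did not deviate together (r = -0.23, -0.16 and -0.39 for numbers 2, 3 and 5). Between libraries with different numbers r ran from -0.56 to 0.57, so these values cannot show whether the numbers pair the libraries. With the number as a replicate block, Mrps21 had a log2 fold change of -1.15. In that fit 1 of the 78 genes was lower at an unadjusted p under 0.05 (0.838% of all tested genes), Mrpl55 being lost at -0.18. With a window ending at the start site, the YY1 motif was found in 2 genes in place of 8 (2.90%, against 1.38% of tested genes). Depth is unknown, so the counting error of low genes such as Mrpl53 could not be given.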
